A study of Sus scrofa with 24 samples.

Results

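The acute phase proteins are plasma proteins that the liver makes in amounts that shift with infection, tissue injury and inflammation. The 10 genes described here encode the fibrinogen chains alpha, beta and gamma (FGA, FGB, FGG), C-reactive protein (CRP), lipopolysaccharide-binding protein (LBP), lipocalin 2 (LCN2), haptoglobin (HP), inter-alpha-trypsin inhibitor heavy chain 4 (ITIH4), orosomucoid 1 (ORM1) and alpha-2-macroglobulin (A2M). They were measured in the livers of 24 pigs, and a gene was taken as measured when the name, description or accession that the array gives for a probe named it. By that rule 9 of the 10 genes had a probe, with 20 probes between them of 43603 on the array, and FGB was matched by none. All 20 probes passed the filter on dim probes, which left 29665 for testing, so no measured gene was lost to it. The filter asked for 6 of 8 arrays well above background in at least 1 group. Both LCN2 probes and the dim second ORM1 probe met it only through the groups where they were higher.

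Hepatocytes release many acute phase proteins in response to cytokines, above all interleukin-6 and interleukin-1. These act through STAT3, C/EBP and NF-kB transcription factors on the promoters of the genes. In pigs, haptoglobin, C-reactive protein, ITIH4 (known in this species as pig-MAP, the major acute phase protein) and serum amyloid A are used in blood as signs of infection and stress. Proteins that fall during the same reaction, such as albumin and transthyretin, are called negative acute phase proteins.

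The pigs came from a selection on residual feed intake (RFI), which is the feed an animal eats beyond what its growth and maintenance predict. Livers were taken at 115 kg body weight, and each of 3 groups held 8 pigs. RFIneg pigs were of the low RFI, feed-efficient line with free access to feed. RFIpl pigs were of the high RFI line with free access to feed. RFIplR pigs were also of the high RFI line, but their daily allowance was restricted to what the RFIneg line ate. RFIpl and RFIplR thus share a line and differ in feeding, RFIplR and RFIneg share a feeding level and differ in line, and RFIpl and RFIneg differ in both line and amount eaten. No label names a litter, a sex, a health status or an inflammatory challenge. The values are thus levels at slaughter without a stimulus named in the labels.

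RNA of each liver was hybridised to 1 one-colour array. The 75th percentile of the array's signals ran from 364.4 to 470.2, and 63.2% to 72.7% of spots were well above background. The 24 arrays lay on 6 slides of 4 arrays, scanned on 2 days, and every slide held all 3 groups. Correlations between arrays ran from 0.971 to 0.991, and no library stood apart. The tissue label was checked against hepatocyte markers: the 6 of 8 that were tested (ALB, TTR, APOA1, APOB, TF and CYP2E1) were well above background on all arrays, at a mean level of 7.85, 7.89 and 7.86 in RFIneg, RFIpl and RFIplR. A level is the log2 signal of a probe minus the log2 of its array's 75th percentile, so that a difference of 1 is 2-fold. Levels of different probes are not compared with each other.

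Probe sequences show which of the 20 signals are separate measurements. Those printed, 5′ to 3′ as the array files give them, all read through without a stop codon in at least 1 frame. The FGG probes share no run longer than 6 bases, so they report on different stretches of the transcript:
FGG A_72_P293239: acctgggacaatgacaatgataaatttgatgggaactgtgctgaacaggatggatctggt
FGG A_72_P621557: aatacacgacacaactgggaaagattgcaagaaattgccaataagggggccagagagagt
Of the 5 HP probes, a pair overlaps by 57 bases, shown in capitals, and counts as nearly the same measurement:
HP A_72_P178006: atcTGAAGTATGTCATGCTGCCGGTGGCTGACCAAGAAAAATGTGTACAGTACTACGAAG
HP A_72_P581127: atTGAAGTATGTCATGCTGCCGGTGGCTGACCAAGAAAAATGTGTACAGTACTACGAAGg
Both LCN2 probes carry the identical 60 bases, so they differ only in their place on the slide:
LCN2 A_72_P000426 and A_72_P563459: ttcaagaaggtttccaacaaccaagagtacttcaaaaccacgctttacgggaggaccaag
LBP has a single probe, and ORM1 has 1 bright probe:
LBP A_72_P236672: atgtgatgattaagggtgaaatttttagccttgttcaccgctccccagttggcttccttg
ORM1 A_72_P247587: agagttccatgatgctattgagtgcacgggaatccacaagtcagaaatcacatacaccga
The 20 probes thus hold 19 distinct sequences. No other probe on the array shares a run of 25 bases with any of them on either strand. Genome positions of the probes were not used here, because the files name no genome build.

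No acute phase gene passed the threshold in any comparison, by limma at an adjusted p of 0.05 over all 29665 probes. In RFIpl minus RFIneg 0 of 20 member probes were called, against 48 probes over the array (0.162%). In RFIplR minus RFIpl 0 of 20 were called, against 0 over the array (0%). In RFIplR minus RFIneg 0 of 20 were called, against 68 over the array (0.229%). The moderated F test over the 3 groups called 63 probes of the array (0.212%) and 0 of the 20. The smallest adjusted p among the members was 0.314 (A2M and ORM1), 0.693 (FGA) and 0.163 (the second ORM1 probe, mostly not well above background in RFIneg, with the second CRP probe next at 0.205) in the same order of comparisons.

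At an unadjusted p under 0.05, 3 of 20 member probes (15%) were past the mark in RFIpl minus RFIneg, where 9.64% of all probes were. In RFIplR minus RFIpl 7 of 20 (35%) were past it, 6 with a positive and 1 with a negative difference, where 5.37% of all probes were. In RFIplR minus RFIneg 8 of 20 (40%) were past it, 6 positive and 2 negative, where 12.8% of all probes were. Probes of 1 gene are not independent, and by the brightest probe of each gene the counts were 2, 5 and 5 of 9 genes. Counted among these are the brighter LCN2 probe, in both comparisons with RFIplR, and the second ORM1 probe, in RFIplR minus RFIneg, which passed the filter through their higher groups. The median difference of the 9 genes was -0.0092 in RFIpl minus RFIneg, 0.17 in RFIplR minus RFIpl and 0.17 in RFIplR minus RFIneg, where the medians of all probes were 0.0036, -0.011 and -0.0053. The comparisons share groups of pigs, so their values are not independent of each other, and the genes were listed with earlier results of these pigs known.

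**Figure D1:**
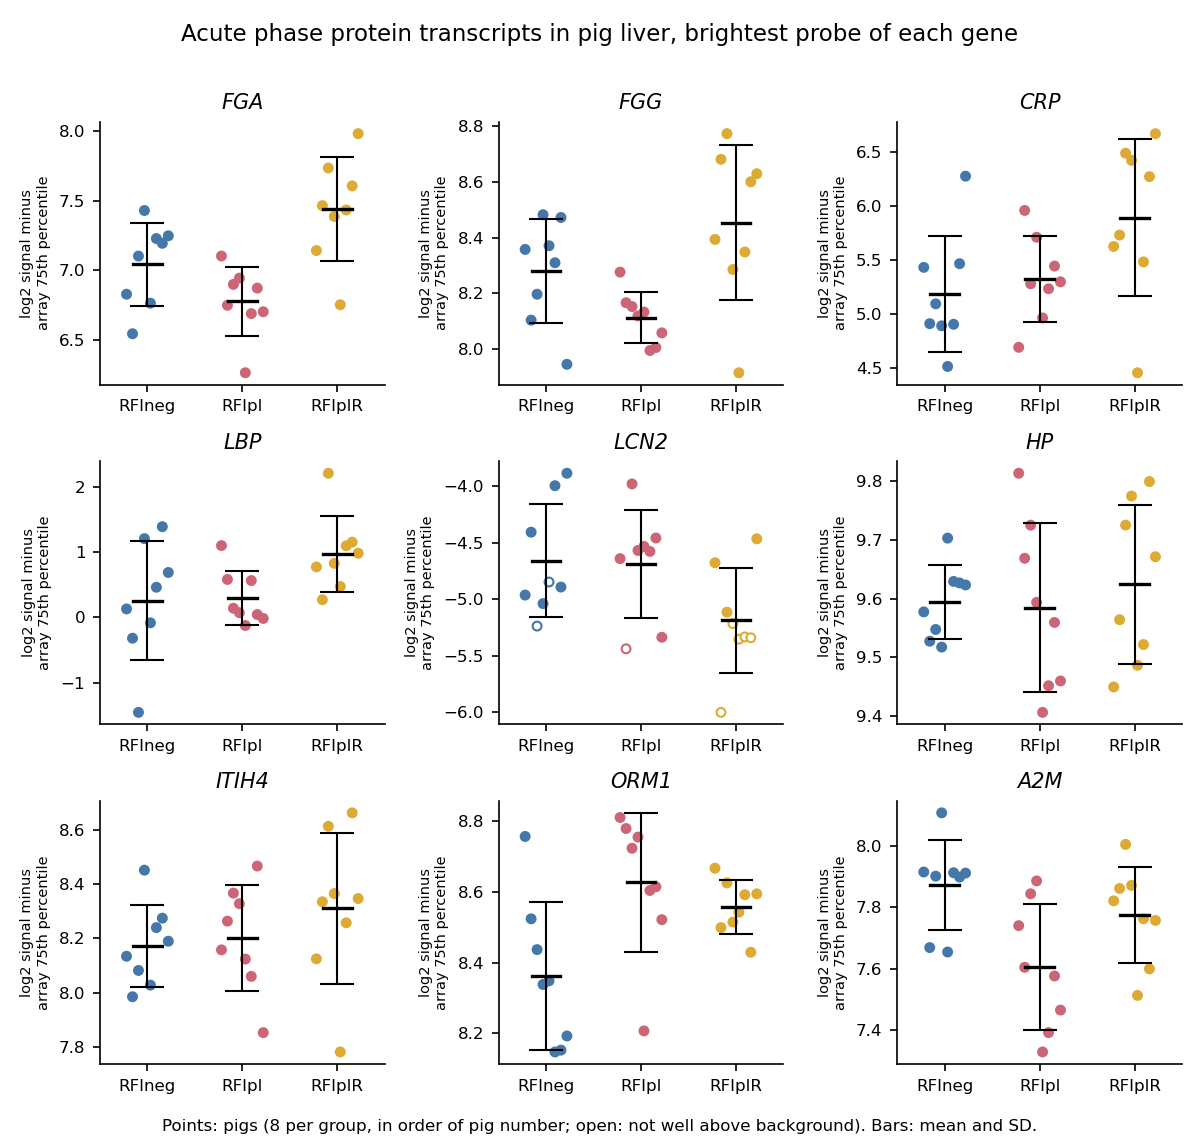
Level of each measured acute phase gene in each pig, by group, at the gene's brightest probe (y axis: log2 signal minus the array's 75th percentile, separate scale per gene; points: pigs, open where not well above background; bars: mean and SD, 8 pigs a group). In the FGA and FGG panels 7 of 8 RFIplR pigs lie above the highest RFIpl pig and pig 5 lies low, while HP and ITIH4 overlap almost wholly.

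Fibrinogen, the precursor of the fibrin clot, is assembled from the alpha, beta and gamma chains. FGA, the alpha chain, had levels from 6.54 to 7.43 in RFIneg (median 7.15), from 6.26 to 7.10 in RFIpl (median 6.81) and from 6.75 to 7.98 in RFIplR (median 7.45). All but pig 5 of the restricted pigs lay above every RFIpl pig, and the groups overlapped through that pig. The mean in RFIplR was 0.66 ± 0.15 (SE) above that in RFIpl, a 1.58-fold difference with a 95% interval of 0.35 to 0.97, and the limma adjusted p was 0.693. Its unadjusted p was 0.000215, the smallest of any member in any comparison. The difference was positive on 5 of 6 slides and was 0.82 and 0.47 within the separate scan days. Against RFIneg the RFIplR mean differed by 0.40 ± 0.15 (limma adjusted p = 0.257), and RFIpl differed from RFIneg by -0.26 ± 0.15 (limma adjusted p = 0.612).

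Both FGA probes were designed on assembled transcripts that the array describes as partly similar to fibrinogen alpha of another species (human for the bright probe, cat for the second), and the second gave another pattern. Its levels ran from -3.30 to -2.36 in RFIneg, from -4.87 to -2.19 in RFIpl and from -5.49 to -2.80 in RFIplR. RFIneg was the narrow group here, and both groups of the high RFI line reached lower. Its mean was 0.93 ± 0.35 lower in RFIpl than in RFIneg (limma adjusted p = 0.378) and 0.98 ± 0.35 lower in RFIplR than in RFIneg (limma adjusted p = 0.235), and RFIplR minus RFIpl was -0.046. With normexp background correction the differences from RFIneg were -0.42 in RFIpl and -0.56 in RFIplR. The normexp offset of 50 is of the size of this probe's mean signals, 35.8 to 67.9, and shrinks differences by itself. Within the scan days RFIplR minus RFIneg was -1.45 and -0.48 at this probe. Across pigs its deviations from the group means had a correlation of -0.27 with those of the brighter FGA probe over 24 arrays, so the dim probe did not follow the bright one. Neither FGA probe has a frame without a stop codon.

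FGG, the gamma chain, was tight in RFIpl and wide in RFIplR. At its brighter probe the levels ran from 7.95 to 8.48 in RFIneg (median 8.33), from 8.00 to 8.28 in RFIpl (median 8.13) and from 7.92 to 8.77 in RFIplR (median 8.50). The SD was 0.09 in RFIpl and 0.28 in RFIplR. As for FGA, 7 of 8 restricted pigs exceeded the highest RFIpl pig, and pig 5 was below the lowest. RFIplR minus RFIpl was 0.34 ± 0.10 (limma adjusted p = 0.729), positive on 5 of 6 slides and 0.36 and 0.31 on the scan days.

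The second FGG probe, which reports on another stretch of the transcript, was read beside the first. It ran from 5.81 to 6.60 in RFIneg, from 5.90 to 6.17 in RFIpl and from 5.89 to 6.89 in RFIplR, and 6 of 8 restricted pigs were above the highest RFIpl pig. Its difference in RFIplR minus RFIpl was 0.47 ± 0.12 (limma adjusted p = 0.709), and in RFIplR minus RFIneg 0.23 ± 0.12 (limma adjusted p = 0.449). The deviations of the FGG probes had a correlation of 0.74 over 24 arrays. RFIpl minus RFIneg was -0.17 ± 0.10 and -0.24 ± 0.12 at the FGG probes, with limma adjusted p of 0.639 and 0.568.

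CRP binds phosphocholine on damaged cells and bacteria and activates complement. At its brighter probe CRP ran from 4.52 to 6.28 in RFIneg (median 5.01), from 4.70 to 5.96 in RFIpl (median 5.29) and from 4.46 to 6.67 in RFIplR (median 6.01). Restricted pigs supplied both the highest and the lowest of the 24 values. The difference RFIplR minus RFIpl was 0.57 ± 0.27 (limma adjusted p = 0.925) and RFIplR minus RFIneg was 0.71 ± 0.27 (limma adjusted p = 0.257), with 7 of 8 restricted pigs above the mean of either other group. On the scan days RFIplR minus RFIpl was 0.52 and 0.56.

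The second CRP probe, on an assembled transcript with partial similarity, had the largest difference between means of the 20 probes in both comparisons with RFIplR. It ran from 2.05 to 3.88 in RFIneg, from 1.77 to 4.28 in RFIpl and from 1.94 to 6.11 in RFIplR, where the median was 4.40 against 3.30 and 2.86. Pigs 7, 8 and 3 were the highest of the restricted group and pig 5 its lowest, and the group spanned 4.17 log2 units. The mean in RFIplR was 1.57 ± 0.43 above RFIpl (2.97-fold, limma adjusted p = 0.715) and 1.29 ± 0.43 above RFIneg (2.44-fold, limma adjusted p = 0.205). Without restricted pig 5 the difference from RFIneg was 1.64 and passed the threshold (limma adjusted p = 0.0427), with 122 probes called over the array in place of 68. The CRP probes had a correlation of 0.54 over 24 arrays. RefSeq lists 2 pig entries named CRP, and which of them each probe reports was not tested.

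LBP carries bacterial lipopolysaccharide to CD14 and the Toll-like receptor 4 complex. Its single probe ran from -1.45 to 1.39 in RFIneg (median 0.29), from -0.12 to 1.10 in RFIpl (median 0.11) and from 0.27 to 2.21 in RFIplR (median 0.90). All 8 restricted pigs lay above the RFIneg mean, and pig 3 alone was above the highest RFIneg pig. Mean LBP in RFIplR minus RFIpl was 0.68 ± 0.32 (limma adjusted p = 0.925) and RFIplR minus RFIneg was 0.72 ± 0.32 (limma adjusted p = 0.333). The first of these was positive on 6 of 6 slides, 0.52 and 0.96 on the scan days, and 0.50 without restricted pig 3. RFIpl minus RFIneg was 0.043 ± 0.32, and the RFIneg pigs were the most spread, with an SD of 0.91.

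LCN2 binds bacterial siderophores and so withholds iron, and it is made by neutrophils as well as by hepatocytes. It was dim, well above background on 6 RFIneg, 7 RFIpl and 3 RFIplR arrays of 8 each at the brighter spot. Levels ran from -5.24 to -3.88 in RFIneg (median -4.87), from -5.44 to -3.98 in RFIpl (median -4.57) and from -6.00 to -4.46 in RFIplR (median -5.27). The restricted pigs lay toward the lower end of the other groups' range. Its difference in RFIplR minus RFIpl was -0.50 ± 0.23 (limma adjusted p = 0.923) and RFIplR minus RFIneg was -0.53 ± 0.23 (limma adjusted p = 0.329). Both set a group mostly not well above background against another. With normexp RFIplR minus RFIpl was -0.20, but the normexp offset of 50 exceeds the mean signals of 11.9 to 17.8 and shrinks differences. The identical second probe, well above background on 6 RFIneg, 6 RFIpl and 5 RFIplR arrays, gave -0.38 ± 0.28 and -0.34 ± 0.28. It had a correlation of 0.72 to the first over 24 arrays.

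Of 12 neutrophil markers 6 were tested, and their mean level was -2.53 in RFIneg (pigs from -3.25 to -1.40), -2.92 in RFIpl (from -3.47 to -2.52) and -2.84 in RFIplR (from -3.36 to -2.15). No tested probe stood for MPO, CSF3R, CXCR1, CXCR2, CAMP or CD177. Of the 6, 4 had a positive difference in RFIplR minus RFIpl, and 0 had one in RFIplR minus RFIneg. Their part in the LCN2 values was not tested. In bulk liver, fewer cells of a type and less RNA per cell cannot be told apart.

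Haptoglobin, which binds free haemoglobin and delivers it to the macrophage receptor CD163, was bright. At the brightest of its 5 probes it ran from 9.52 to 9.70 in RFIneg (median 9.60), from 9.41 to 9.81 in RFIpl (median 9.58) and from 9.45 to 9.80 in RFIplR (median 9.62). The ranges of the 3 groups lay over one another. Its SD within groups, 0.12, was at the 3.17 percentile of the tested probes, and those of the other HP probes, 0.16 to 0.24, were at the 12.8 to 40.3 percentiles. RFIplR minus RFIpl was 0.039, with a 95% interval of -0.11 to 0.18, and over the 5 probes it ran from 0.022 to 0.15. RFIpl minus RFIneg ran from -0.071 to 0.026 over the 5, and RFIplR minus RFIneg from 0.030 to 0.15. No spot of any member was saturated, and whether signals this bright respond in proportion to RNA was not tested.

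ITIH4 is a heavy chain homologue that circulates unbound to the bikunin light chain. At the brightest of its 3 probes it ran from 7.99 to 8.45 in RFIneg (median 8.16), from 7.85 to 8.47 in RFIpl (median 8.21) and from 7.78 to 8.66 in RFIplR (median 8.34). Restricted pigs again held both ends of the range, with pig 5 lowest. At the group level RFIplR minus RFIpl was 0.11 ± 0.11 at that probe (limma adjusted p = 0.967) and 0.28 ± 0.19 and 0.33 ± 0.18 at the dimmer ones. RFIplR minus RFIneg ran from 0.14 to 0.33 over the 3 probes, and RFIpl minus RFIneg from -0.099 to 0.029. The correlation between the ITIH4 probes was 0.75 to 0.98 over 24 arrays.

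ORM1, or alpha-1-acid glycoprotein, binds basic drugs and modulates leukocytes. Its bright probe ran from 8.15 to 8.76 in RFIneg (median 8.34), from 8.21 to 8.81 in RFIpl (median 8.67) and from 8.43 to 8.67 in RFIplR (median 8.57). The restricted group was narrow here (SD 0.08), and all 8 of its pigs lay above the RFIneg mean. RFIpl minus RFIneg was 0.26 ± 0.09 (limma adjusted p = 0.314), RFIplR minus RFIneg was 0.20 ± 0.09 (limma adjusted p = 0.363) and RFIplR minus RFIpl was -0.069 ± 0.09 (limma adjusted p = 0.975). The second probe, on an assembled transcript similar to the bovine protein, was well above background on only 3 RFIneg arrays and on 7 in each other group. Its difference was 1.08 ± 0.34 in RFIplR minus RFIneg (limma adjusted p = 0.163), with all 8 restricted pigs above the RFIneg mean, and 0.61 ± 0.34 in RFIpl minus RFIneg (limma adjusted p = 0.583). With normexp background correction these values were 0.0022 and -0.12. The normexp offset of 50 exceeds this probe's mean signals of 19.2 to 46.7 in the groups. It shrinks differences by itself, so these values cannot show whether the differences hold. The ORM1 probes had a correlation of 0.24 over 24 arrays.

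A2M is a broad protease trap that also carries cytokines. Its probe ran from 7.65 to 8.11 in RFIneg (median 7.91), from 7.33 to 7.88 in RFIpl (median 7.59) and from 7.51 to 8.00 in RFIplR (median 7.79). Free-fed pigs of the high RFI line lay lowest, and 7 of 8 were below the RFIneg mean. RFIpl minus RFIneg was -0.27 ± 0.09 (limma adjusted p = 0.314), negative on 6 of 6 slides and -0.27 and -0.24 on the scan days. For RFIplR minus RFIpl it was 0.17 ± 0.09 (limma adjusted p = 0.925), and RFIplR minus RFIneg was -0.097 ± 0.09.

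**Figure D2:**
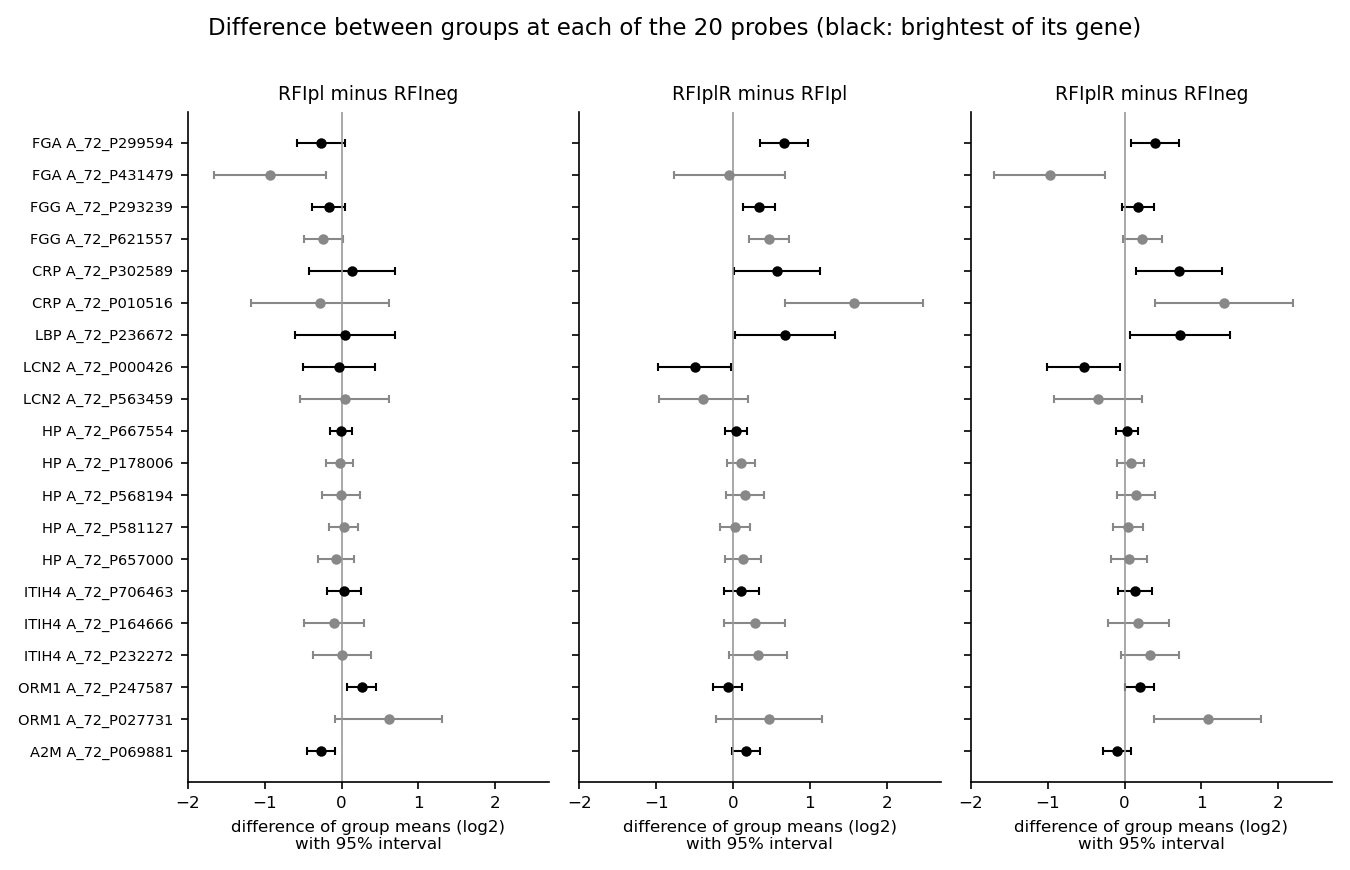
Difference between group means at each of the 20 probes in the 3 comparisons (x axis: log2 difference; points: estimate, lines: 95% interval from limma, not adjusted for the number of probes; black: brightest probe of its gene, grey: the others). In RFIplR minus RFIpl the intervals of the brighter FGA probe, both FGG, both CRP and the LBP probe lie above 0, that of 1 LCN2 probe lies below 0, and none of these passed the adjusted threshold.

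Spread among pigs differed widely between the genes. The SD within groups was at the 90.9 and 98.1 percentile of all tested probes for the CRP probes, at 94.2 for LBP, and at 16 for A2M and for the bright ORM1 probe. The median over all probes was 0.27. FGA (0.31) was just above that median, and the brighter FGG probe (0.20) was below it.

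Restricted pig 5 was the lowest of its group at the brightest probes of FGA, FGG, CRP, ITIH4 and A2M and at 4 of 5 HP probes. Averaged over the 9 genes, each pig's mean deviation from the gene means was -0.34 in that pig and 0.50 in restricted pig 3, the ends of all 24. Pigs of the other groups came close to the lower end, at -0.32 in RFIneg pig 3 and -0.31 in RFIpl pig 5. The group means of this average were -0.054 ± 0.19 (SD) in RFIneg, -0.084 ± 0.15 in RFIpl and 0.14 ± 0.26 in RFIplR, with 8 pigs in each. The array of restricted pig 5 had a 75th percentile of 364.5 and 66.3% of spots well above background, both within the range of the others. Without it, RFIplR minus RFIpl was 0.76 for FGA, 0.42 for the brighter FGG probe and 0.78 for the brighter CRP probe, with limma adjusted p of 0.121, 0.235 and 0.363.

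**Figure D3:**
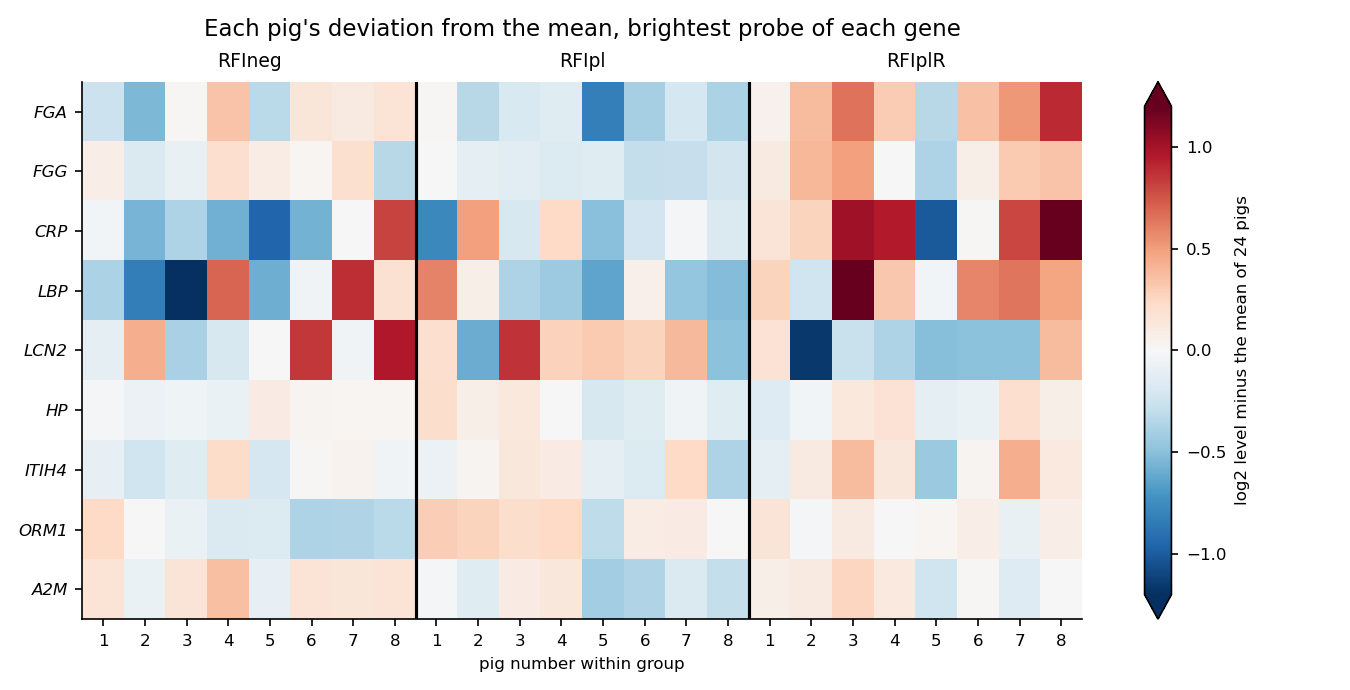
Deviation of each pig from the mean of all 24, for the brightest probe of each gene (rows: genes; columns: pigs by group and number; colour: log2 difference, red above and blue below the mean, with values past the ends of the scale shown in the end colour). Pig 5 of the RFIplR group is blue for FGA, FGG, CRP, ITIH4 and A2M, and pigs 3 and 7 of that group are red for FGA, FGG, CRP, LBP and ITIH4.

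Whether the genes varied together from pig to pig was examined on deviations from the group means, so that differences between those means play no part. Differences in spread between the groups remain. Of 36 pairs of genes 32 had a positive Pearson's r over the 24 pigs, with a median of 0.36. By permutation within groups (100000 resamples, two-sided) 4 pairs passed an adjusted p of 0.05 over the 36. FGA and ITIH4 had r = 0.71 (permutation adjusted p = 0.00936) and Spearman's rho = 0.72 (permutation adjusted p = 0.00828), and r was 0.61 without the 2 pigs farthest from the FGA median. FGA and A2M had r = 0.67 (permutation adjusted p = 0.00936) and rho = 0.56, with r = 0.53 without the 2 farthest pigs. FGG and ITIH4 had r = 0.62 and ITIH4 and A2M had r = 0.57 (permutation adjusted p = 0.0434 for each), with rho of 0.52 and 0.53. FGA and FGG, chains of the same protein, had r = 0.58 (permutation adjusted p = 0.0504). For LCN2 and ORM1 the highest r with another member was 0.35, between ORM1 and A2M. That changed with normexp, where 25 pairs passed, 20 positive and 5 negative. All 5 negative pairs held LCN2 (r from -0.83 to -0.61), and ORM1 passed in 4 positive pairs (r from 0.48 to 0.70). Mean LCN2 signals, 11.9 to 17.8 in the groups, lie below the offset of 50 that normexp adds. The normexp r of LCN2 thus cannot show how its RNA varied, and without normexp its r ran from -0.19 to 0.18. By Spearman's rho 2 pairs passed, FGA with ITIH4 and FGA with LBP.

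That any pair passed depended on restricted pig 5. Without it 0 of 36 pairs passed (smallest permutation adjusted p = 0.0853), 7 had an unadjusted p under 0.05, and the median r was 0.27. The r without it was 0.59 for FGA with ITIH4, 0.60 for FGA with A2M, 0.41 for FGG with ITIH4 and 0.48 for ITIH4 with A2M. Leaving out any other single pig left FGA with ITIH4 and FGA with A2M past the threshold, with 2 to 10 pairs passing. FGG with ITIH4 and ITIH4 with A2M were less stable. Neither passed without, for example, RFIneg pig 2 or restricted pig 3. Over all 24 pigs with slide means removed the median r was 0.27, and 6 pairs passed. Within RFIneg, RFIpl and RFIplR the median r was 0.12, 0.35 and 0.47. The 15 pairs among the 6 hepatocyte markers had a median r of 0.17, and the 54 pairs of a member with a marker had 0.12.

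**Figure D4:**
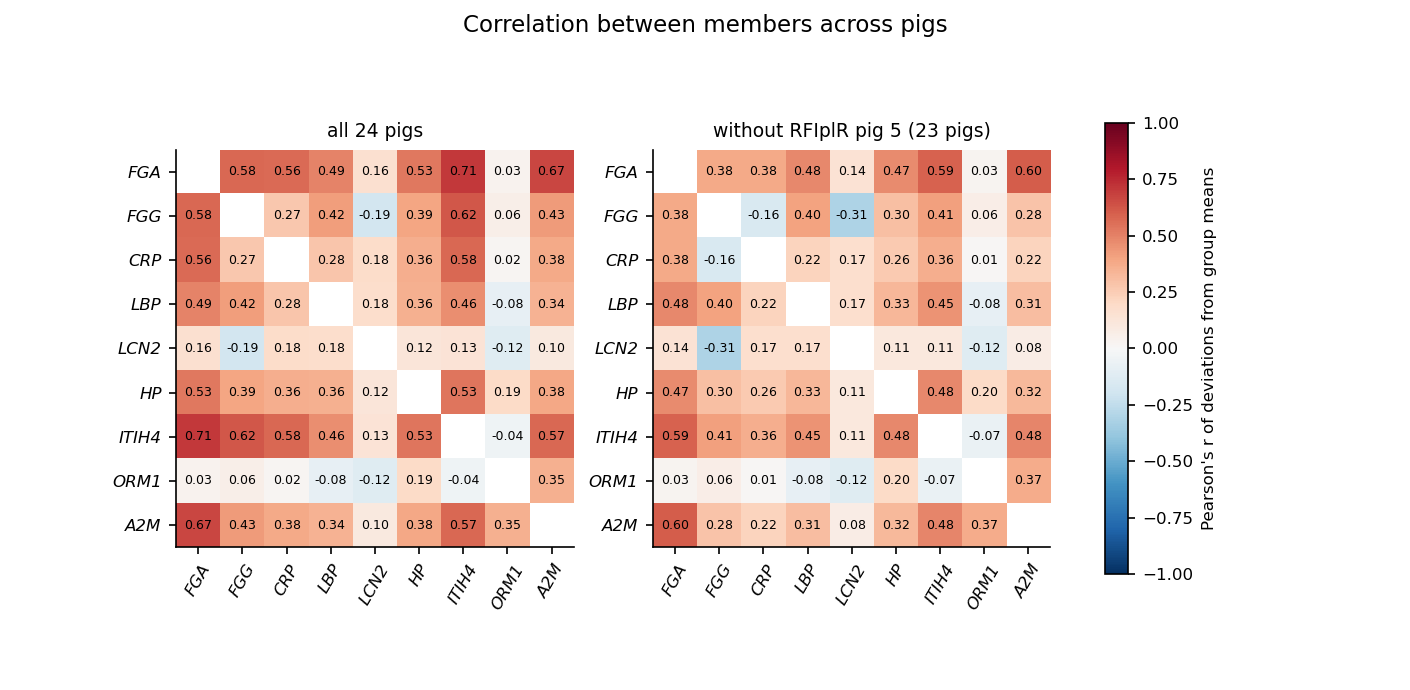
Pearson's r between the genes' deviations from group means over all 24 pigs (left) and without restricted pig 5 (right), at the brightest probe of each gene (colour and number in each cell: r). FGA, FGG, ITIH4, CRP, HP, LBP and A2M are mostly positive with one another on the left, and the values for FGG with CRP and with ITIH4 are lower on the right.

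Over all 24 pigs, group differences included, the named genes outside the members whose profile was most like that of FGG were SF3B1 (r = 0.89), HSP90B1 (r = 0.73), MRPL52 (r = 0.73), PZP (r = 0.73) and FKBP7 (r = 0.73), and FGA, a member and so left out of the ranking, had r = 0.74. For LBP they were ERCC1 (r = 0.76), DAD1 (r = 0.71), MTX1 (r = 0.71), ZSCAN16 (r = 0.70) and OSGEP (r = 0.70). These are the highest of the values for all genes with 1 symbol other than the members and are given as a description.

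Other genes of the acute phase reaction are given for context. Of 42 other genes listed as positive acute phase proteins 27 were tested. Whether each of them rises in the reaction in pig liver was not tested. Limma called 0 of the 27 in each comparison. At an unadjusted p under 0.05 there were 2, 1 and 3 in RFIpl minus RFIneg, RFIplR minus RFIpl and RFIplR minus RFIneg. The median difference of the 27 was -0.022, 0.018 and -0.013. APCS, the serum amyloid P pentraxin and a relative of CRP, had a difference of 0.93 ± 0.23 in RFIplR minus RFIneg (limma adjusted p = 0.0815), 0.48 ± 0.23 in RFIpl minus RFIneg and 0.44 ± 0.23 in RFIplR minus RFIpl. C4BPA, a chain of the complement inhibitor C4b-binding protein, had 0.28 ± 0.10 in RFIplR minus RFIneg (limma adjusted p = 0.219). ITIH2, a heavy chain related to ITIH4, had -0.33 ± 0.10 in RFIpl minus RFIneg (limma adjusted p = 0.197). CD14, to which LBP hands lipopolysaccharide, had -0.12 ± 0.07 there.

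Genes of this list chosen after their values were seen are the amyloid gene SAA3, at 0.30 ± 0.47 in RFIplR minus RFIpl, and HAMP, the iron hormone hepcidin, at 1.33 ± 0.87. The plasma proteins C3, CP, HPX and SERPINA1, chosen likewise, lay between -0.057 and 0.065 in that comparison.

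Of 16 negative acute phase proteins 13 were tested and limma called 0 in each comparison, with 1, 0 and 0 at an unadjusted p under 0.05. SERPINA7, the thyroxine-binding globulin, had -0.25 ± 0.10 in RFIpl minus RFIneg (limma adjusted p = 0.415) and 0.19 ± 0.10 in RFIplR minus RFIpl. Transferrin (TF) differed by -0.12 ± 0.08 in RFIplR minus RFIpl, where albumin (ALB) and transthyretin (TTR), also chosen after their values were seen, differed by 0.018 ± 0.06 and -0.044 ± 0.07. The median difference of the list there was -0.043.

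Upstream of the members, 22 of 33 inducers, receptors and signal transducers were tested and limma called 0, with 4, 0 and 2 at an unadjusted p under 0.05. In RFIpl minus RFIneg, RFIplR minus RFIpl and RFIplR minus RFIneg, 13, 10 and 9 of the 22 had a positive difference. The medians were 0.033, -0.0018 and -0.037. STAT3, which carries the interleukin-6 signal to the promoters, had a difference of 0.89 ± 0.23 in RFIplR minus RFIneg (limma adjusted p = 0.0877). It had 0.53 ± 0.23 in RFIpl minus RFIneg (limma adjusted p = 0.451) and 0.36 ± 0.23 in RFIplR minus RFIpl. MYD88, the adaptor of Toll-like and interleukin-1 receptors, had 0.38 ± 0.11 in RFIplR minus RFIneg (limma adjusted p = 0.151) and the same size in RFIpl minus RFIneg (limma adjusted p = 0.223). SOCS3, an inhibitor that the interleukin-6 signal induces, had 0.81 ± 0.41 in RFIplR minus RFIpl (limma adjusted p = 0.925), and the receptor chain IL6R had -0.16 ± 0.08. The kinase JAK2 had -0.28 ± 0.10 in RFIpl minus RFIneg (limma adjusted p = 0.317).

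Of 13 transcription factors of these genes 10 were tested and limma called 0, with 1, 1 and 3 at an unadjusted p under 0.05. CEBPD had 0.36 ± 0.19 in RFIplR minus RFIpl and 0.49 ± 0.19 in RFIplR minus RFIneg (limma adjusted p = 0.269). CEBPA, its relative, had -0.93 ± 0.38 in RFIplR minus RFIneg (limma adjusted p = 0.299).

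Of 11 partners and receptors of the proteins 7 were tested and limma called 0, with 1, 0 and 1 at an unadjusted p under 0.05. F13A1, the clotting factor chain that crosslinks fibrin, had 1.70 ± 0.48 in RFIpl minus RFIneg (limma adjusted p = 0.183) and -0.72 ± 0.48 in RFIplR minus RFIpl. The haptoglobin receptor CD163, also a Kupffer cell marker, had 0.48 ± 0.16 in RFIplR minus RFIneg (limma adjusted p = 0.199). The other tested Kupffer cell and macrophage markers went both ways there. CD5L and CD14 had -0.15 and -0.027, and C1QA and VSIG4 had 0.13 and 0.19.

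Markers of other liver cells were read beside these values. The mean of the 5 tested of 11 Kupffer cell and macrophage markers was 4.31, 4.41 and 4.44 in RFIneg, RFIpl and RFIplR, with pigs from 4.02 to 4.81 over the groups. The 6 tested of 7 stellate cell and fibroblast markers had means of 0.87, 0.52 and 0.35, and among them RGS5 differed by -1.29 ± 0.30 in RFIplR minus RFIneg (limma adjusted p = 0.0633). CPA1, the tested 1 of 5 pancreatic acinar markers, had means of -0.54, -1.86 and -2.35 (RFIplR minus RFIneg, limma adjusted p = 0.0817). Hepatocyte markers had median differences of 0.036, -0.026 and 0.012 in RFIpl minus RFIneg, RFIplR minus RFIpl and RFIplR minus RFIneg. Of the tested cholangiocyte (4 of 6), T and NK lymphocyte (8 of 10), B cell (1 of 6) and endothelial (5 of 6) markers 0 were called in any comparison, and 0 had an unadjusted p under 0.05. The part of these cell types in the members' values was not tested.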

How the data were processed

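The scanner files hold, per the file headers, background-subtracted processed intensity from Feature Extraction 10.7.3.1, with mean and background intensity and quality flags. The deposited table of log2 values holds the authors' normalized values. It equals log2 processed signal minus a constant per array (r = 1, column medians 0), and R 2.10.0 is named in the submitters' processing notes. From the 43803 spots that are not controls, log2 processed intensity minus the array's 75th percentile was taken, outlier-flagged spots were left out (none of a member), and spots of a probe were averaged. Probes well above background on at least 6 of 8 arrays of a group entered a group-means model over all 24 arrays (limma 3.58.1, R 4.3.3, Benjamini-Hochberg over 29665 probes).

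A level is that of a gene's brightest probe, with all its other probes beside it. The text names all 10 members whatever their values, draws on the 3 genes of each other list with the smallest p in each comparison (other genes are marked as chosen after their values were seen), and, for likeness to FGG and LBP, gives the 5 genes with the highest r. The members, gene lists and tests were chosen with earlier results of these data known. Probes were named through RefSeq for Sscrofa 11.1 (12377 of 43603 had 1 symbol). Correlations used numpy 2.4.6. Alternatives changed the background correction (normexp, offset 50), scaling, filter, fit, slide, scan day, array weights and pigs. The group-means model was tested on simulated arrays with known changes. Same-numbered pigs were checked for pairing: correlations of their deviations ran from -0.19 to 0.42, and 8 of 24 were over 0.1. Among the 8 were pigs 3, 4, 5, 6 and 7 of RFIplR with RFIpl, at 0.20, 0.14, 0.23, 0.19 and 0.42. The others were pig 5 of RFIpl with RFIneg (0.32) and pigs 1 and 5 of RFIplR with RFIneg (0.11 and 0.12). The labels name no litter behind the numbers, which were used only as a block in an alternative fit. The number of arrays limits the precision. The labels number the arrays of a group as replicates. Each was taken as a single pig, and p-values measure the spread between those replicates. A promoter search was not run.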

Additional observations from a re-analysis of the deposited data

Results flagged for a closer look

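Of 60 combinations of a probe and a group of 8 pigs, 6 had a pig set apart from the rest by Dixon's rule, all in the RFIplR group, where chance alone sets apart about 1 group in 20. At 3 of the 5 HP probes restricted pig 5 was far below the other pigs, at 8.63 with the next pig at 9.07, at 7.73 with the next at 8.32, and at 8.49 with the next at 8.99. These probes measure 1 transcript in 1 liver and are not separate events. LBP was far above the others in restricted pig 3, at 2.21 with the next pig at 1.15. The dim second probe of FGA was far below in restricted pig 8, at -5.49 with the next pig at -3.61, where it was not well above background. The dim second probe of ORM1 was far above in restricted pig 2, at -1.40 with the next pig at -3.39.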

How the results depend on the processing

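Under all 16 alternatives and without each of the 24 pigs in turn, no gene passed in any comparison by limma at the brightest probe, with 9 genes tested except under 2 alternatives (the authors' table, and well above background on all 24 arrays), which tested 8 and not LCN2. The second CRP probe passed in RFIplR minus RFIneg without restricted pig 5 (1.64, adjusted p = 0.0427), within a range of 1.04 to 1.64 over single pigs left out. At their brightest probes FGA, FGG, CRP and LBP kept a positive difference in RFIplR minus RFIpl throughout. Under the alternatives it ran from 0.47 to 0.82, 0.29 to 0.38, 0.38 to 0.61 and 0.52 to 0.96. The second FGA probe, at -0.046 there, did not share this. The count of probes called over the array in RFIpl minus RFIneg (48) was 5 with normexp, 28 with no filter, 5 and 10 within the scan days and 91 with array weights, and 27 to 57 without single pigs (27, 28 and 30 without RFIpl pigs 3, 2 and 6). In RFIplR minus RFIneg (68) it was 13 with normexp, 32 with only those groups in the fit, 36 and 10 within the scan days, 25 without restricted pigs 7 and 8, and 30 to 145 without single pigs (30 without RFIneg pig 8, and 145, 122, 45, 40 and 37 without RFIplR pigs 1, 5, 8, 2 and 7). With the pig number as a replicate block, it was 103. In RFIplR minus RFIpl (0) it was 1 within scan day 2, 2 with array weights and 0 to 1 without single pigs. With normexp, FGG and A2M were -0.056 and -0.17 in RFIpl minus RFIneg, and FGG and ORM1 were both 0.32 in RFIplR minus RFIneg. Pairs of correlated genes (4) numbered 25 with normexp, 5 of them negative, all with LCN2, whose mean signals lay below the offset. They numbered 0 to 10 without single pigs, an alternative added after the data were seen. The replicate block changed no call of a member.

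Differences that turned sign were small or imprecise, and none was called. In RFIpl minus RFIneg HP was 0.070 with normexp, 0.016 with quantile normalization, 0.070 within scan day 2, 0.025 with array weights, 0.025 without RFIpl pigs 5 and 7, and -0.042 to 0.016 without single pigs. LCN2 was 0.0059 with slide as a block, 0.12 within scan day 1, 0.010 with array weights and -0.13 to 0.077 without single pigs, and its second probe was -0.17 with normexp, -0.0096 with quantile normalization and -0.074 to 0.22 without single pigs. LBP was -0.20 within scan day 1 and -0.20 to 0.21 without single pigs. CRP was -0.037 within scan day 2, its second probe 0.36 within scan day 1, and the second ORM1 probe -0.12 with normexp. ITIH4 was -0.0015 without RFIpl pigs 5 and 7 and -0.0083 to 0.079 without single pigs. In RFIplR minus RFIneg A2M was 0.047 with normexp, and HP was -0.039 within scan day 1 and -0.0070 without restricted pigs 7 and 8. In RFIplR minus RFIpl HP was -0.0026 with array weights. There the second ORM1 probe was -0.26 within scan day 2, and the second FGA probe was 0.64 within scan day 2, 0.25 without restricted pigs 7 and 8 and -0.23 to 0.22 without single pigs. The cause was not tested. Dim LCN2 and second-probe signals near background limit what can be seen for those transcripts. With normexp the offset of 50 exceeded the mean signals of LCN2 and of the second ORM1 probe.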
